A study of Mus musculus with 17 samples.

Results

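The CC chemokine ligands are small secreted proteins that draw leukocytes through G protein-coupled receptors, and 10 of them were followed here in mammary macrophages and basal cells: Ccl2, Ccl7, Ccl12, Ccl8, Ccl3, Ccl4, Ccl5, Ccl6, Ccl9 and Ccl24. They were chosen by gene symbol and are 10 of 35147 gene symbols listed across the deposited tables. All 10 were listed in the tables of the knockout experiments, the CXCR4 sort and the P4 basal cells. The culture table listed 9, and Ccl12 was not analysed there.

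Ligands of this family act on overlapping sets of receptors, so several ligands can reach the same cell. CCL2, CCL7 and CCL12 bind CCR2 and recruit monocytes, which replenish many tissue macrophages, and several members bind CCR1. Macrophages are both a major source and a target of these proteins, and their genes respond to inflammatory, interferon and IL-4 signals.

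The study sequenced RNA of 17 mouse mammary libraries in 12 groups. In 4 groups of 2, F4/80 and CD11b sorting gave macrophages of virgin LysM-Cre controls (genotype LysmCre+), LysM-Cre Cxcr4 knockouts (LysmCre+, Cxcr4fl/fl), K8-Cre controls (K8Cre+) and Cxcl12 knockouts of the K8-Cre line (K8Cre+, Cxcl12fl/fl). LysM-Cre deletes in myeloid cells, so these macrophages themselves lose the receptor CXCR4, whereas K8-Cre deletes in luminal epithelium, so the macrophages lose a source of its ligand CXCL12. Wild type macrophages gave 2 libraries sorted as CXCR4+ and 1 as CXCR4-. A further 4 libraries, 1 each, came from wild type macrophages sorted the same way and cultured with 2% fetal bovine serum, untreated or with recombinant CXCL12, the AKT kinase inhibitor GSK690693 or both, with doses and times not given in the labels. The last 2 libraries, 1 K8Cre+ control and 1 K8Cre+, Cxcl12fl/fl, held P4 cells (Lin-CD24+CD29high), basal cells enriched for mammary stem cells. Ages were not given, and no label ties a library to an individual mouse, so p-values measure the spread between libraries, which may be technical.

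Levels are given as CPM, reads scaled to the same total in every library, in macrophages and as FPKM, a value per length and depth, in P4 cells. Depth was 8.60 to 37.2 M reads in the knockout experiments, 23.2 to 28.8 M in the CXCR4 sort and 14.3 to 29.04 M in culture, so that 3 reads stood for 0.0806 to 0.349 CPM. The share of listed genes at 0 was highest in K8-Cre control 1 (37.2%) and LysM-Cre control 1 (30.7%), and 8.31% to 25.3% in the other 6 libraries of these experiments. Small noncoding RNA took 2.96% to 6.75% of reads in libraries numbered repeat 1 and 15.2% to 19.3% in those numbered repeat 2, so changes are also given within each repeat. Cxcr4 itself had 232 and 140 CPM in its knockout against 819 and 318 CPM in the control, but this fall did not pass over all genes (limma adjusted p = 1), and the levels of the CC ligands in these libraries carry that limit.

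In the GENCODE M21 annotation of GRCm38, 9 of the 10 genes lie on chromosome 11 in 2 blocks, 1409 kb apart, and all are protein-coding. The first block holds Ccl2 (ENSMUSG00000035385, chr11:82035571-82037453), Ccl7 (ENSMUSG00000035373, chr11:82045712-82047525), Ccl12 (ENSMUSG00000035352, chr11:82101845-82103400) and Ccl8 (ENSMUSG00000009185, chr11:82115185-82116799). The second holds Ccl5 (ENSMUSG00000035042, chr11:83525778-83530518), Ccl9 (ENSMUSG00000019122, chr11:83572919-83578636), Ccl6 (ENSMUSG00000018927, chr11:83587882-83593087), Ccl3 (ENSMUSG00000000982, chr11:83647844-83649355) and Ccl4 (ENSMUSG00000018930, chr11:83662584-83664683). Ccl24 (ENSMUSG00000004814) lies on chromosome 5 from 135569937 to 135573049. The annotated transcripts of different members shared runs of at most 25 bases (Ccl6 and Ccl9) and 23 bases (Ccl2 and Ccl7).

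Per kb of exon, the 10 genes spanned a wide range of levels in the 8 libraries of the knockout experiments. Ccl6 had the highest median, 236 CPM per kb, followed by Ccl4 (201), Ccl2 (162), Ccl7 (157), Ccl9 (143), Ccl3 (133), Ccl5 (88.7), Ccl8 (46.7), Ccl24 (16.5) and Ccl12 (14.0). Each gene's range over the 8 libraries overlapped that of its neighbours in this order. The order differed by library in the CXCR4 sort: in the CXCR4- library Ccl3 was highest (176 CPM per kb) with Ccl2 at 29.7 and Ccl7 at 6.67, whereas in the CXCR4+ libraries Ccl4 was highest (875 and 1446) and Ccl7 (365 and 643) and Ccl2 (294 and 600) stood well above their CXCR4- level.

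The CXCR4 sort asks how macrophages with and without the receptor at their surface differ. CXCR4+ macrophages had higher RNA levels of 7 of the 10 CC ligands in the limma fit, among them all 4 of the first block, and none was lower by the test. Genes had to reach 1 CPM in 2 or more libraries, so a gene present only in the CXCR4- library could not be tested. Ccl8 and Ccl12 reached 1 CPM only in the CXCR4+ libraries and entered the test through them. The shares of all genes higher and lower carry the same limit. The CXCR4- group has 1 library, and each call assumes that it varies like the CXCR4+ pair, with limma taking the spread from the trend over all genes. All 7 calls ended without the mean-variance trend (adjusted p from 0.228 to 0.441) and likewise when the filter on low values was dropped (from 0.258 to 0.265), where no gene of the whole table passed but 2049 and 2684 had an unadjusted p under 0.05, respectively. Summed over the 10 genes, the level was 2363 and 3501 CPM in the CXCR4+ libraries and 905 CPM in the CXCR4- library. Of all 14411 genes tested with limma, 5.06% were higher, 3.4% lower and 8.46% changed in either direction (729 higher and 490 lower; 854 and 357 with median-ratio scaling). The median log2 difference was 3.17 for the 10 members and -0.20 for all genes.

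Of the 10 genes, the 4 of the first block had the largest log2 differences in the main fit, in the order Ccl7, Ccl8, Ccl12 and Ccl2. This ranking depends on the processing. Over the alternatives Ccl12 ran from 2.41 to 7.76 and Ccl8 from 3.92 to 6.62. Outside the first block, Ccl4 ran from 2.58 to 3.30 and Ccl24 from 2.64 to 3.68. Ccl7, a CCR2 ligand, had 292 and 515 CPM in the CXCR4+ libraries and 5.35 CPM in the CXCR4- library, a 75.5-fold higher mean (log2 difference 5.94, SE 0.38, 95% interval 5.19 to 6.68, limma adjusted p = 5.08e-51). Ccl2, the best known CCR2 ligand, had 334 and 683 CPM against 33.8 CPM (15.0-fold; log2 3.78, SE 0.34, adjusted p = 1.87e-25). Both CXCR4+ values of each gene were far above the CXCR4- value, although the CXCR4+ pair itself differed by a wide margin for both.

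Ccl8, which in mice signals through CCR8 and is known from resident and alternatively activated macrophages, had 70.8 and 94.7 CPM against 0.733 CPM (log2 5.58, SE 0.60, limma adjusted p = 4.13e-18). Ccl12, a mouse CCR2 ligand, had 24.8 and 18.8 CPM and was not detected in the CXCR4- library. Set against 3 reads in that library (0.129 CPM), its CXCR4+ mean was at least 169-fold higher (limma adjusted p = 9.63e-05). Ccl11, an eotaxin gene that lies between Ccl7 and Ccl12 and is not among the 10, had 0.799 and 6.88 CPM against 6.08 CPM and did not pass (log2 difference -0.91, limma adjusted p = 0.731). The CXCR4+ and CXCR4- levels of Ccl11 overlapped, unlike those of the 4 genes around it.

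**Figure D1:**
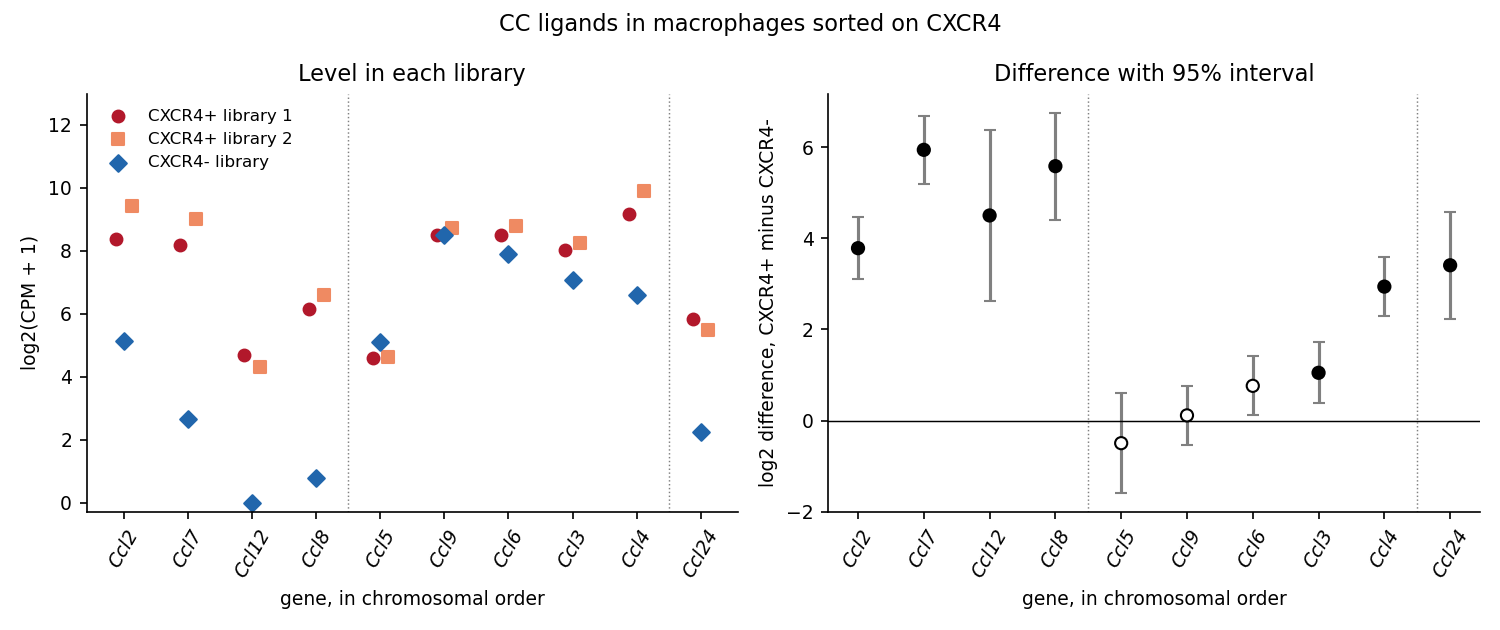
Levels of the 10 CC ligands on the log2(CPM + 1) scale in each library sorted on CXCR4 (left), and the log2 difference with its 95% interval from limma (right), filled where it passed. Genes stand in chromosomal order, with dotted lines between the first block, the second block and Ccl24; the 4 genes of the first block, Ccl3, Ccl4 and Ccl24 passed, and Ccl5, Ccl9 and Ccl6 did not.

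In the second block, 2 of 5 genes passed. Ccl4, an inflammatory chemokine, had 578 and 955 CPM in the CXCR4+ libraries and 96.0 CPM in the CXCR4- library (7.98-fold; log2 difference 2.94, SE 0.33, limma adjusted p = 1.41e-16). Its neighbour Ccl3, which binds CCR1, had 259 and 301 CPM against 135 CPM (2.08-fold; log2 1.05, SE 0.34, limma adjusted p = 0.0286). The Ccl3 call was the weakest of the 7, and it ended with a pseudocount of 0.1 CPM (adjusted p = 0.0546).

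The CCR1 ligands Ccl6 and Ccl9, abundant in myeloid cells, differed less. Ccl6 had 364 and 442 CPM against 236 CPM (log2 difference 0.76, 95% interval 0.11 to 1.41, limma adjusted p = 0.158). Ccl9 had 361 and 424 CPM against 361 CPM (0.11, interval -0.53 to 0.76, adjusted p = 0.896), and it was the 1 member whose groups overlapped (groups did not overlap in 76.7% of all genes, 32.1% higher and 44.6% lower). Ccl5, a ligand that T cells and NK cells also make, had 23.3 and 23.5 CPM against 33.4 CPM (-0.50, interval -1.59 to 0.60, adjusted p = 0.686). Ccl24, an eotaxin that acts on CCR3 and is induced by IL-4, had 55.5 and 43.9 CPM against 3.75 CPM (13.3-fold; log2 3.41, SE 0.60, adjusted p = 8.39e-07).

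Promoter sequences of 250 bases before the RefSeq start (GRCm38.p6) were at hand for 5 of the 10 members, and 4 are shown because they set 2 genes of the first block that rose (Ccl12, Ccl8) beside a gene of the second block that rose (Ccl3) and one that did not pass (Ccl9). They cover chr11:82101595-82101844 (Ccl12, plus strand), chr11:82114935-82115184 (Ccl8, plus), chr11:83649379-83649628 (Ccl3, minus) and chr11:83578637-83578886 (Ccl9, minus), each 5′ to 3′ with motif matches in capitals.
Ccl12: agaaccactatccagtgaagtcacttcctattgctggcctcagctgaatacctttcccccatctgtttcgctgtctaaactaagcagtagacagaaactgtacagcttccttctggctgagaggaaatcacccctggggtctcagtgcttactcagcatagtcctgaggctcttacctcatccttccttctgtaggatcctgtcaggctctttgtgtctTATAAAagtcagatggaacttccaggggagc
Ccl8: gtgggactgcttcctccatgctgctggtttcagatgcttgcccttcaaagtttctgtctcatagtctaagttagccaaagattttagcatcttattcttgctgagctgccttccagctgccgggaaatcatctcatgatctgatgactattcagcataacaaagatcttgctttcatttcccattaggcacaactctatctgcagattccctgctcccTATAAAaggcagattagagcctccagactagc
Ccl3: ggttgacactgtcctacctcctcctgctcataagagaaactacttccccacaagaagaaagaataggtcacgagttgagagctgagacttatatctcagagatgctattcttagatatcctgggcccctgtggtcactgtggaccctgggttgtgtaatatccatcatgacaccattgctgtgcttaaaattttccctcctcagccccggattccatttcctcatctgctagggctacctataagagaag
Ccl9: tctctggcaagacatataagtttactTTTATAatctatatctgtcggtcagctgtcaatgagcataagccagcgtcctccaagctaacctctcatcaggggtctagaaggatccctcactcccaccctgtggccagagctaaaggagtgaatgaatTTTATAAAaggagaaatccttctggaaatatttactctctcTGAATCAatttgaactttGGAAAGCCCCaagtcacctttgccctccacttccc
The search took both strands. Of 32851 mouse promoters of the same length, 3.90% held the NF-kB consensus, 6.75% the AP-1 letters TGANTCA, 5.85% the STAT6 letters TTCNNNNGAA and 7.02% the STAT letters TTCNNNGAA. The interferon element TTTCNNTTTC was found in 2.98%, the FOXO letters GTAAACA in 3.17%, the MAF letters TGCTGAC in 3.81% and the TATA letters TATAAA in 12.4%. Ccl12 and Ccl8 each held a TATA match at bases 31 to 26 and 32 to 27 before the start. Ccl9 held 3 TATA matches, a pair of them overlapping, an AP-1 match at bases 53 to 47 and an NF-kB match at bases 35 to 26. The windows of Ccl3 and Ccl6 held none of these letter patterns.

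Receptors of the family moved in both directions between the sorted libraries. Ccr1, a receptor of CCL3, CCL5, CCL6, CCL7 and CCL9, had 261 and 294 CPM in the CXCR4+ libraries against 20.8 CPM (log2 difference 3.67, SE 0.37, limma adjusted p = 7.23e-21). Ccr3, the eotaxin receptor of eosinophils, fell to 1.94 and 3.90 CPM from 72.0 CPM (-4.26, SE 0.86, limma adjusted p = 3.27e-05). Ccr2, the receptor of CCL2, CCL7 and CCL12, had 490 and 449 CPM against 630 CPM and did not pass (-0.42, SE 0.33, limma adjusted p = 0.530).

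Among the signalling lists that include inducers and companions of these ligands, 5 of 10 IL-4 and STAT6 response genes tested rose and 2 fell. Mrc1, the mannose receptor, had 2463 and 2766 CPM against 144 CPM, and Retnla, an effector of alternative activation, 2444 and 1480 CPM against 284 CPM. Of 17 NF-kB response genes 4 rose, among them Cxcl1, a neutrophil chemokine, at 80.1 and 162 CPM against 9.44 CPM. Of 13 interferon response genes 4 rose, with Ifit1, an antiviral effector, at 203 and 266 CPM against 23.1 CPM. Of 15 immediate early genes 1 fell, Nr4a1, at 324 and 262 CPM against 778 CPM. Of 4 other CC ligands tested none passed.

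Cell markers also differed between the sorted libraries. Cxcr4 mRNA had 632 and 875 CPM in the CXCR4+ libraries and 772 CPM in the CXCR4- library, so the RNA did not separate the sort (limma adjusted p = 0.958). All 10 resident stromal macrophage markers rose, with summed levels of 4247 and 3878 CPM against 221 CPM, and 8 of 10 general macrophage markers rose (11584 and 13877 CPM against 7209 CPM), with Csf1r at 1483 and 1491 CPM against 467 CPM. Of 9 monocyte markers 5 fell (501 and 475 CPM against 1428 CPM). Of 7 dendritic cell markers 2 rose and 3 fell, and they summed to 267 and 172 CPM against 704 CPM and eosinophil markers to 3.99 and 0.147 CPM against 169.5 CPM. Fibroblast markers, of which 3 of 6 rose, summed to 191 and 442 CPM against 92.1 CPM. The part of these cell types in the CC ligand differences was not tested. In bulk libraries fewer cells of a type and less RNA per cell cannot be told apart.

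The knockout of Cxcr4 in myeloid cells asks what these ligands do when macrophages lose the receptor. With limma, none of the 10 members passed, and 0.00579% of the 17275 genes tested did, which was 1 gene. That gene was Lyz2, the locus into which LysM-Cre is inserted. It was lower in the knockout (log2 change -6.47, SE 0.40, limma adjusted p = 1.03e-25), although both groups are labelled LysmCre+. The labels do not give the copy number of the Cre allele, and the part of this difference in the ligand changes was not tested. An unadjusted p under 0.05 was found for 575 genes. The members' median log2 change was 0.25, with 8 of 10 above 0, beside 0.14 for all genes. Ccl2, Ccl6 and Ccl8 were higher in both knockout libraries than in either control, 3 of 10 members where 16.7% of all genes did so (8.75% were lower in both, and 25.4% apart in either direction).

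Ccl2 had 349 and 279 CPM in the Cxcr4 knockout (repeats 1 and 2) and 185 and 230 CPM in the control, a log2 change of 0.60 (SE 0.57, limma adjusted p = 1), or 0.92 between libraries of repeat 1 and 0.28 between those of repeat 2. Ccl8 had 124 and 32.7 CPM against 9.54 and 31.4 CPM (1.81, SE 1.29, adjusted p = 1), and its difference came from repeat 1 (3.57, against 0.06 in repeat 2). Ccl6 had 607 and 535 CPM against 457 and 512 CPM (0.24, SE 0.47, adjusted p = 1), with knockout and control values close to each other in repeat 2.

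The other members overlapped between knockout and control. Ccl4 had 342 and 135 CPM against 178 and 88.7 CPM and stood at 0.94 and 0.60 on the log2 scale in repeats 1 and 2. Ccl7 had 326 and 176 CPM against 256 and 154 CPM (0.35 and 0.19). Ccl9 had 419 and 547 CPM against 410 and 451 CPM (0.03 and 0.28). These 3 were higher than control within both repeats, with 95% intervals of the change that included 0. The share of all genes higher within both repeats is not given here. The sign turned for Ccl7 without control 2 (-0.092) or without knockout 1 (-0.17), and for Ccl9 without knockout 2 (-0.038).

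Members with lower or uneven levels changed sign between repeats. Ccl3 had 145 and 94.5 CPM in the Cxcr4 knockout against 191 and 52.2 CPM, and Ccl5 140 and 112 CPM against 371 and 51.8 CPM. Ccl24 had 14.9 and 31.4 CPM against 89.2 and 19.7 CPM. Ccl12 had 14.3 and 1.25 CPM against 8.10 CPM in control 2 and no read in control 1. For each of these 4 genes the sign turned between repeats. It also turned when control 1 was left out for Ccl5, Ccl12 and Ccl24 and when control 2 was left out for Ccl3. Leaving out 1 of the knockout libraries turned it too for Ccl3, Ccl5 and Ccl12.

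Deletion of Cxcl12 in luminal cells asks what the macrophages express when an epithelial source of the CXCR4 ligand is lost. None of the 10 members passed with limma, 0% of the 17275 genes tested did, and 491 had an unadjusted p under 0.05. The members' median log2 change was -0.19, with 4 of 10 above 0, beside 0.36 for all genes. With quantile normalization the latter median was 0.02.

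Ccl6 had 262 and 189 CPM in the Cxcl12 knockout against 387 and 391 CPM in the K8-Cre control, a log2 change of -0.80 (SE 0.47, limma adjusted p = 1), or -0.56 between libraries of repeat 1 and -1.04 between those of repeat 2. Both knockout values were under both control values; 8.02% of all genes were lower in this way, and in 28.4% the groups were apart in either direction. Ccl3 had 103 and 54.4 CPM against 192 and 101 CPM (-0.88, SE 0.66, adjusted p = 1), with -0.89 and -0.88 in the repeats. Ccl9 had 453 and 282 CPM against 647 and 359 CPM (-0.52 and -0.35). Ccl3 and Ccl9 were lower in the knockout between libraries of the same repeat number, which were not treated as paired, while their groups overlapped.

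Ccl12 was the 1 member higher in both knockout libraries, with 11.7 and 11.8 CPM against 6.93 CPM in control 2 and no read in control 1; 20.4% of all genes were higher in this way. Control 1 also held 1 read of Ccl8 (0.116 CPM) and 2 reads of Ccl24 (0.233 CPM), against 36.8 and 25.2 CPM in control 2. In the Cxcl12 knockout Ccl8 had 16.4 and 14.0 CPM, and Ccl24 had 23.2 and 8.70 CPM. All 3 genes were near or at 0 in the shallowest library of the experiment, which also had the most genes at 0, and in repeat 2 Ccl8 and Ccl24 were lower in the knockout than in the control.

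The remaining members showed small or uneven differences. Ccl2 had 97.1 and 153 CPM in the Cxcl12 knockout against 77.2 and 183 CPM, Ccl7 57.6 and 74.9 CPM against 97.0 and 74.2 CPM, Ccl4 175 and 82.7 CPM against 131 and 112 CPM, and Ccl5 58.3 and 55.7 CPM against 147 and 41.7 CPM. All 4 overlapped between knockout and control.

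The changes in both knockouts were compared in the same fit. No member passed (limma adjusted p = 0.9999 for each), and 0.00579% of all genes did (1 gene, with 428 at an unadjusted p under 0.05). The median difference, Cxcr4 knockout change minus Cxcl12 knockout change, was 0.57 for the 10 members with 8 above 0, beside -0.22 for all genes. For Ccl6 it was 1.04 (SE 0.67, 95% interval -0.28 to 2.36).

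The 8 libraries were also grouped by Cre line, a comparison made after the values had been seen. Ccl7, Ccl2 and Ccl6 were each higher in all 4 LysM-Cre libraries than in all 4 K8-Cre libraries, 3 of 10 members where 0.521% of all genes did so (1.97% were lower in all 4, 2.49% apart in either direction). For Ccl2 the values nearly met, at 184.6 CPM in LysM-Cre control 1 and 183.3 CPM in K8-Cre control 2. Ccl7 had 154 to 326 CPM in LysM-Cre libraries, a mean of 228 ± 78.5 CPM (SD, n = 4), and 57.6 to 97.0 CPM in K8-Cre libraries, a mean of 75.9 ± 16.1 CPM (SD, n = 4). Its log2 difference was 1.53 (SE 0.43, 95% interval 0.68 to 2.39) and did not pass over all genes (limma adjusted p = 0.537); it passed without LysM-Cre control 2 (1.72, adjusted p = 0.0301).

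Ccl2 averaged 261 ± 70.6 CPM in LysM-Cre and 128 ± 49.1 CPM in K8-Cre libraries (SD, n = 4 each), with a log2 difference of 1.07 (SE 0.40, limma adjusted p = 0.9995). Ccl6 averaged 528 ± 62.3 CPM and 307 ± 99.0 CPM (SD, n = 4 each; 0.83, SE 0.33, adjusted p = 0.9995). The median over the 10 members was 0.90, with 9 above 0 and only Ccl12 below, beside -0.20 for all genes. No member passed with all libraries in the fit, and 0.0463% of genes did, 0.0405% lower and 0.00579% higher (8 in all, with 643 at an unadjusted p under 0.05).

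The Cre lines differed in other markers too. Resident stromal macrophage markers summed to 1768 to 2431 CPM in LysM-Cre and 844 to 1376 CPM in K8-Cre libraries, with no overlap, although none of the 10 passed singly. Fibroblast markers summed to 244 to 530 CPM and 435 to 750 CPM. Hspa1b, a heat shock gene of the dissociation list, was lower in LysM-Cre libraries (log2 difference -1.69, SE 0.28, limma adjusted p = 0.000159; 934 to 4194 CPM against 4090 to 6310 CPM, ranges that overlap). The part of these in the ligand levels was not tested, and the Cre line and any batch that followed it cannot be told apart.

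**Figure D2:**
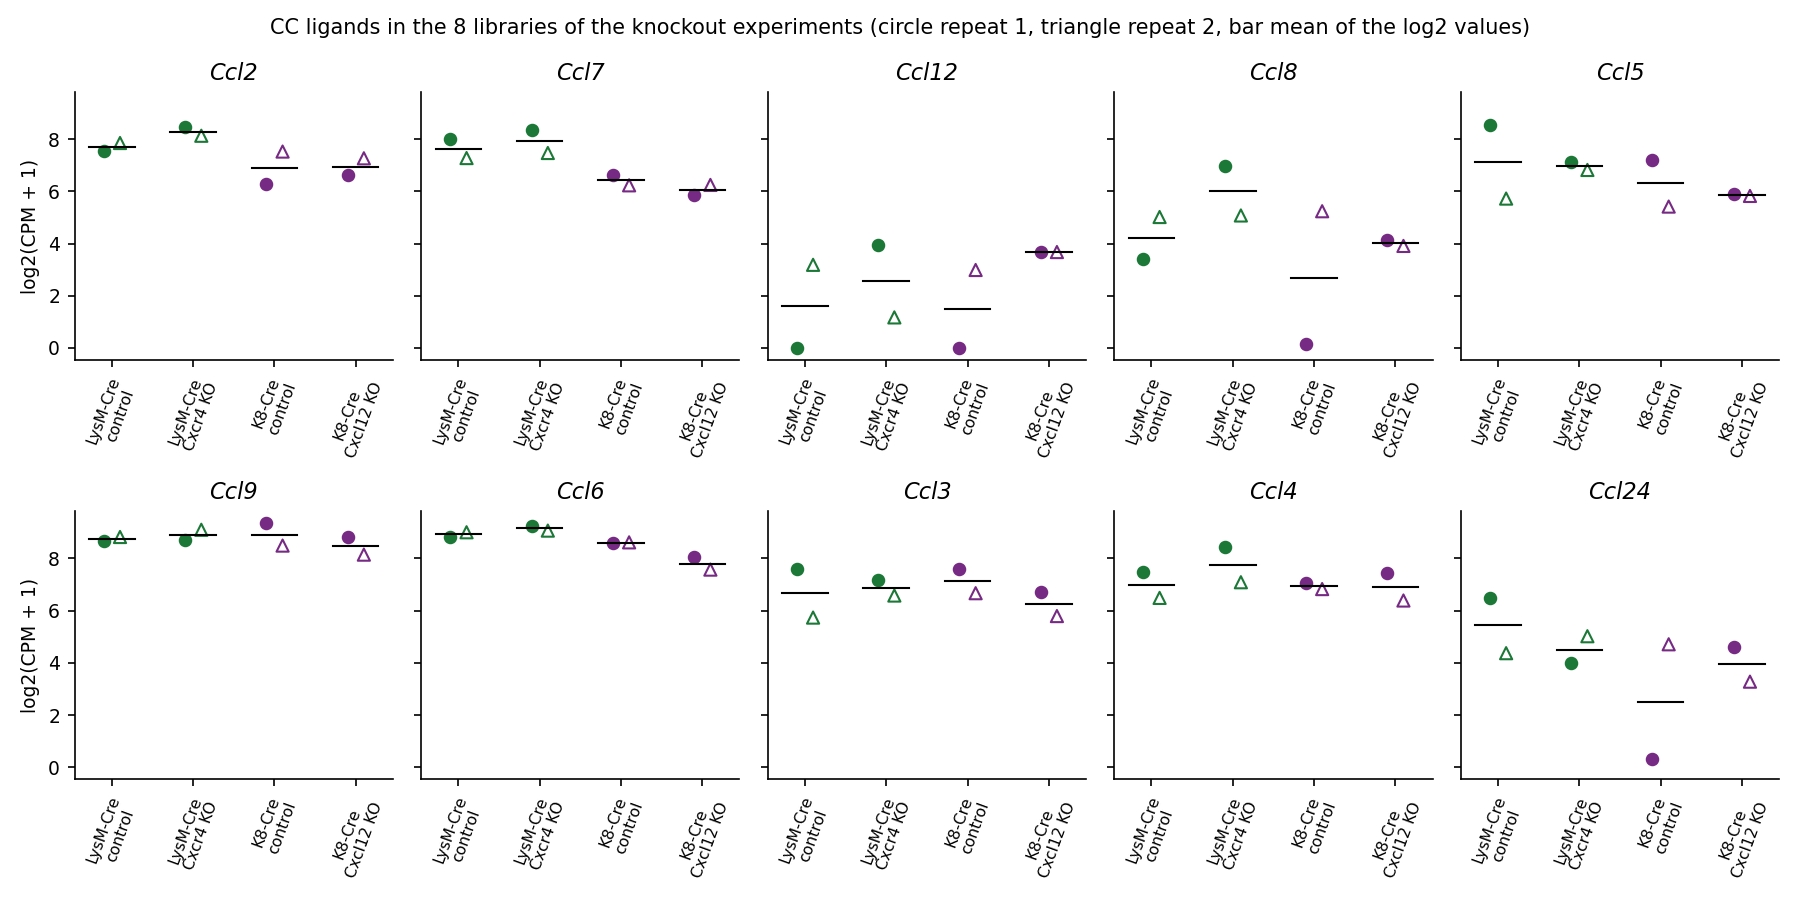
Levels of the 10 CC ligands on the log2(CPM + 1) scale in the 8 libraries of the knockout experiments, with LysM-Cre libraries in green and K8-Cre libraries in purple, filled circles for repeat 1, open triangles for repeat 2 and a bar at the mean of each pair. Ccl7, Ccl2 and Ccl6 stand higher in all 4 LysM-Cre libraries, Ccl2 by a narrow margin, and Ccl12, Ccl8 and Ccl24 reach 0 or nearly so in K8-Cre control 1.

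Likeness to other genes was measured over these 8 libraries as the root mean square difference of centred log2(CPM + 1), among 8982 genes with a mean of at least 10 CPM. The genes nearest to Ccl2 were F13a1, which encodes a coagulation factor XIII subunit (0.21), and Chp2 (0.27). Those nearest to Ccl7 were Cd209f, a C-type lectin gene of resident macrophages (0.29), and C5ar1, the receptor of complement C5a (0.31). Those nearest to Ccl4 were Furin, a proprotein convertase (0.11), and Nfkb2, an NF-kB subunit (0.18). In the CXCR4 sort, the log2 differences of F13a1, Cd209f and C5ar1 were 3.36, 7.29 and 4.92, and those of Furin and Nfkb2 were 0.52 and -0.27. F13a1 and Cd209f are among the resident stromal macrophage markers already counted above. The sort values of Chp2 and of the genes nearest to the other members are not given here.

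No member was the nearest gene to another member. The nearest member to Ccl7 was Ccl6, at rank 44 of the genes compared, with its chromosomal neighbour Ccl2 at rank 84. The nearest to Ccl5 was Ccl3 at rank 119, and to Ccl6 it was Ccl9 at rank 122. Ccl3 and Ccl4 were each other's nearest member, at ranks 610 and 739. The other nearest genes were Erp29 and Wfdc17 for Ccl3, Cdk2ap1 and Bloc1s3 for Ccl5, Gnpda1 and Oas3 for Ccl6, Serpinb6a and Tspan31 for Ccl8, Irf2bp2 and Chic2 for Ccl9, and Nrde2 and Nr2c1 for Ccl24; the mean of Ccl12 was under the minimum. These likenesses rest on 8 libraries that share 2 Cre lines and differ in depth, and are descriptions.

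The culture experiment asks how CXCL12 and AKT, a kinase that acts downstream of many receptors, affect macrophages directly. AKT inhibition went with lower levels of the CC ligands. Summed over the 9 listed members, the level was 2599 CPM untreated and 1576 CPM with the inhibitor, and 3110 CPM with CXCL12 and 1934 CPM with both. Of 8 members with at least 10 CPM in the higher library, all 8 were lower with the inhibitor in both pairs, where 27.9% of all genes were and 28.2% were higher; with median-ratio scaling Ccl6 in the CXCL12 pair stood at 0.00093. The pairs are single libraries, no test was run, and the spread between cultures is unknown.

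Ccl4 had 351 CPM untreated and 97.0 CPM with the inhibitor (log2 ratio -1.86), and 391 CPM with CXCL12 and 148 CPM with both (-1.40). Ccl5 had 20.0 and 9.29 CPM (-1.10), and 10.7 and 1.12 CPM (-3.15). These 2 of 8 members were at least 2-fold lower in both pairs, where 5.75% of all genes were and 4.75% were at least 2-fold higher. Ccl3 had 285 and 242 CPM (-0.24) without CXCL12, and 408 and 197 CPM with it (-1.05). In single pairs, 2 of 8 members were at least 2-fold lower without CXCL12 and 3 of 8 with it, where 16.4% and 24.2% of all genes were. None was 2-fold higher, where 19.9% and 23.6% of all genes were, and 36.3% and 47.7% of all genes were 2-fold apart in either direction. With median-ratio scaling Ccl3 in the CXCL12 pair fell just short of 2-fold (-0.99).

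Ccl8 was lost from the cultures with inhibitor. It had 3.07 CPM untreated and 9.06 CPM with CXCL12, and no read in either library with the inhibitor. Set against 3 reads in those libraries (0.209 and 0.187 CPM), it was at least 14.7-fold and at least 48.4-fold lower, from levels under the 10 CPM minimum. Ccl9 had 952 and 494 CPM in the first pair and 1124 and 682 CPM in the second, and Ccl24 82.5 and 46.0 CPM and 87.1 and 47.5 CPM. Both stayed under 2-fold in both pairs (log2 ratios -0.95 and -0.72 for Ccl9, and -0.84 and -0.88 for Ccl24).

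Ccl2, Ccl7 and Ccl6 also stayed under 2-fold in both pairs. Ccl2 had 402 CPM untreated and 307 CPM with the inhibitor, and 551 CPM with CXCL12 and 373 CPM with both (log2 ratios -0.39 and -0.56). Ccl7 had 160 and 138 CPM, and 186 and 156 CPM (-0.21 and -0.26). Ccl6 had 344 and 242 CPM, and 343 and 330 CPM (-0.50 and -0.06). The median over the 8 members was -0.67 in the first pair and -0.80 in the second, beside 0.06 and 0.07 for all genes.

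CXCL12, compared in the same 4 libraries, went with smaller differences. No member at the 10 CPM minimum reached 2-fold, among 8 without the inhibitor and 7 with it, where 26.3% and 48.9% of all genes did (12% and 21.4% higher, 14.3% and 27.5% lower). In both pairs together, 2.45% of all genes were 2-fold higher and 4.1% lower. Medians were 0.19 and 0.28, and 5 of 7 members (Ccl2, Ccl4, Ccl7, Ccl9 and Ccl24) were higher with CXCL12 in both pairs, where 23.4% of all genes were. The log2 ratios of Ccl2 were 0.45 and 0.28, those of Ccl4 0.16 and 0.61, and those of Ccl9 0.24 and 0.47. Ccl3 was higher with CXCL12 alone (0.52) and lower when the inhibitor was present (-0.29). Ccl5 was lower with CXCL12 in both pairs, at -0.89 without the inhibitor and at -2.94 with it, where both libraries were under the minimum (9.29 and 1.12 CPM). Ccl8, also under the minimum, had 3.07 CPM untreated and 9.06 CPM with CXCL12 (1.53) and had no read in either library with it.

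The other pathway lists differed in how they stood with the inhibitor. Of 13 interferon response genes, 9 were at least 2-fold lower without CXCL12 and 8 with it, with Oas1a at 49.7 and 7.83 CPM in the first pair and Rsad2, the antiviral protein viperin, at 2160 and 480 CPM in the second. Of 17 NF-kB response genes 4 were lower in each pair, beside the 16.4% and 24.2% of all genes. Of 8 IL-4 and STAT6 response genes at the minimum, 2 were higher and 1 lower without CXCL12, and 0 with it. Ptgs2, which encodes COX-2, had 732 and 144 CPM in the first pair and 999 and 165 CPM in the second, and Il1a 333 and 81.3 CPM and 513 and 138 CPM. Ccr1 had 243 CPM with CXCL12 and 89.4 CPM with both. None of the 15 immediate early genes was 2-fold lower in either pair. In the pair with CXCL12, 2 were at least 2-fold higher, beside 23.6% of all genes. These were Jund (76.7 and 173 CPM) and Ier3 (92.4 and 208 CPM).

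The cultured cells carried macrophage markers (summed 6231 to 9836 CPM, Csf1r 173 to 351 CPM) and also endothelial markers, with Cdh5 at 678 to 869 CPM and a summed level of 1505 to 2027 CPM, against 1.63 to 173 CPM in the knockout experiments. The endothelial sum was 1767 and 2027 CPM in the first inhibitor pair and 1505 and 1895 CPM in the second, while the macrophage sum was 7393 and 6231 CPM and 7267 and 9836 CPM. Endothelial markers thus stood higher with the inhibitor in both pairs and macrophage markers in 1 of them, and their part in the ligand values was not tested.

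**Figure D3:**
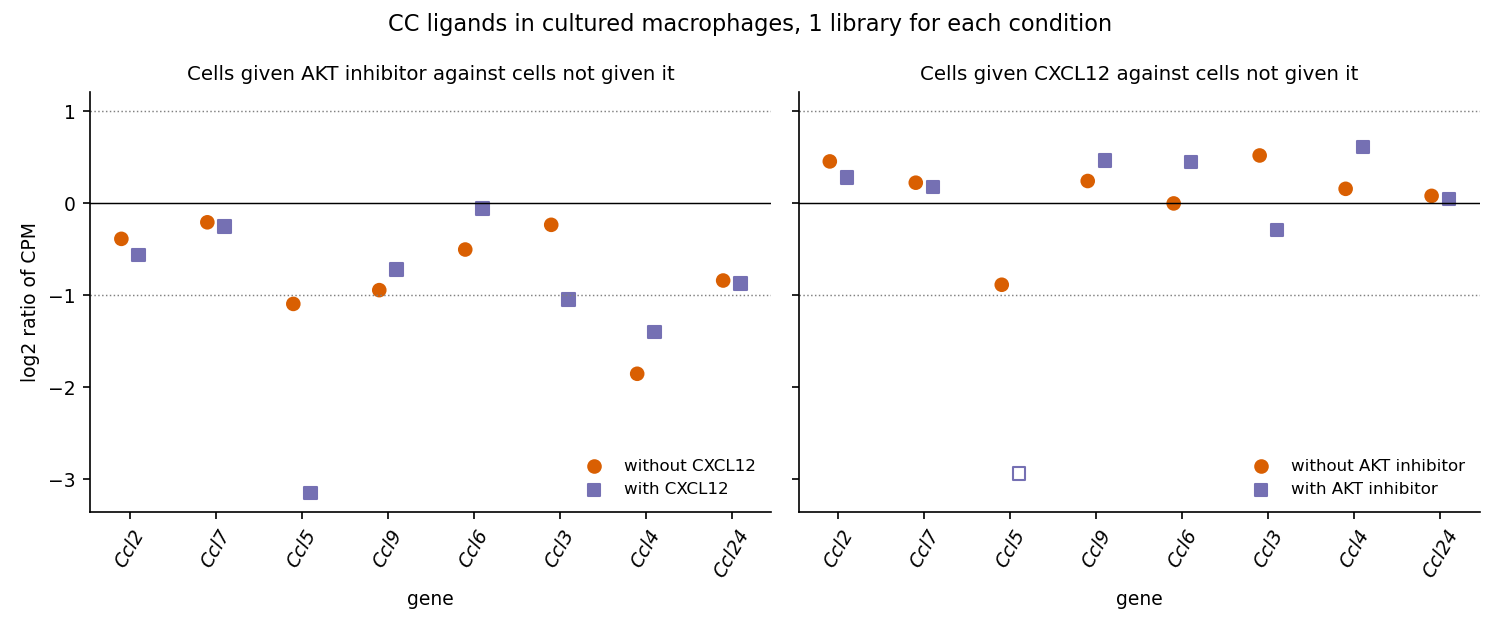
Log2 ratio of CPM between single cultured libraries for 8 CC ligands, for the AKT inhibitor (left, without and with CXCL12) and for CXCL12 (right, without and with the inhibitor); dotted lines mark 2-fold and the open square a gene under 10 CPM in both libraries. All ratios for the inhibitor lie below 0, down to -3.15 for Ccl5, and those for CXCL12 stay within 2-fold except for that open square.

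Culture and freshly sorted cells were normalised in separate tables, so their levels are only set side by side. Ccl5 had 1.12 to 20.0 CPM in culture, 23.3 to 33.4 CPM in the CXCR4 sort and 41.7 to 371 CPM in the knockout experiments. Ccl8 had 0 to 9.06 CPM in culture, 0.733 to 94.7 CPM in the sort and 0.116 to 124 CPM in the knockout experiments. Ccl9 went the other way, with 494 to 1124 CPM in culture, 361 to 424 CPM in the sort and 282 to 647 CPM in the knockout experiments.

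The P4 pair asks whether loss of luminal Cxcl12 alters basal cells. Only Ccl2 and Ccl7 reached 10 FPKM there, and both were more than 2-fold higher in the Cxcl12 knockout library, where 7.99% of 6599 genes were that much higher, 5.33% that much lower and 13.3% apart in either direction. Ccl2 had 63.5 FPKM in the control and 156 FPKM in the knockout (log2 ratio 1.28), and Ccl7 17.5 and 58.3 FPKM (1.68). The median of all genes was -0.04. With 1 library for each genotype and an unknown depth there is no replicate check. The listed FPKM summed to 2.95e+07 in the control and 1.50e+07 in the knockout library.

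The other 8 members were low in P4 cells and each was higher in the knockout library, all from levels under the 10 FPKM minimum. Of the 6599 genes at that minimum, 3121 were higher, but these 8 members are not among them. The share of genes under the minimum that were higher is not given here. Over the alternatives, the log2 ratio of Ccl9 ran from -0.11 to 0.092. Ccl3 had 0.600 and 8.94 FPKM, Ccl4 0.508 and 2.27 FPKM, and Ccl5 1.12 and 2.65 FPKM. Ccl9 had 2.39 and 2.55 FPKM, Ccl6 0.560 and 1.20 FPKM, and Ccl8 0.276 and 0.784 FPKM. Ccl24 had 0.0275 and 0.141 FPKM, and Ccl12 was listed at 0 in the control and at 0.146 FPKM in the knockout. Ccl2 and Ccl7, neighbours in the first block, thus had the highest levels of the 10 in these bulk libraries, while the ligands of the second block stayed under 10 FPKM.

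Among CC ligands outside the 10, Ccl19, a ligand of CCR7, had 2.65 FPKM in the control and 19.7 FPKM in the knockout, and the eotaxin Ccl11 had 14.4 and 32.2 FPKM. Of 12 NF-kB response genes at the minimum, 3 were at least 2-fold higher: Cxcl1 (126 and 377 FPKM), Ptgs2 (17.4 and 52.4 FPKM) and Il6 (14.7 and 42.5 FPKM). None of the CC receptor genes reached 10 FPKM.

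P4 cells carried basal markers, with Krt5 at 436 and 456 FPKM and Krt14 at 561 and 471 FPKM in control and knockout. Fibroblast markers, 6 of 6 higher in the knockout library, summed to 291 and 484 FPKM, with Col1a1 at 46.6 and 107 FPKM. The leukocyte marker Ptprc had 0.604 and 4.26 FPKM, Csf1r 0.555 and 1.08 FPKM, and the macrophage markers summed to 25.2 and 45.0 FPKM. The part of these cell types in the higher ligand values was not tested.

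**Figure D4:**
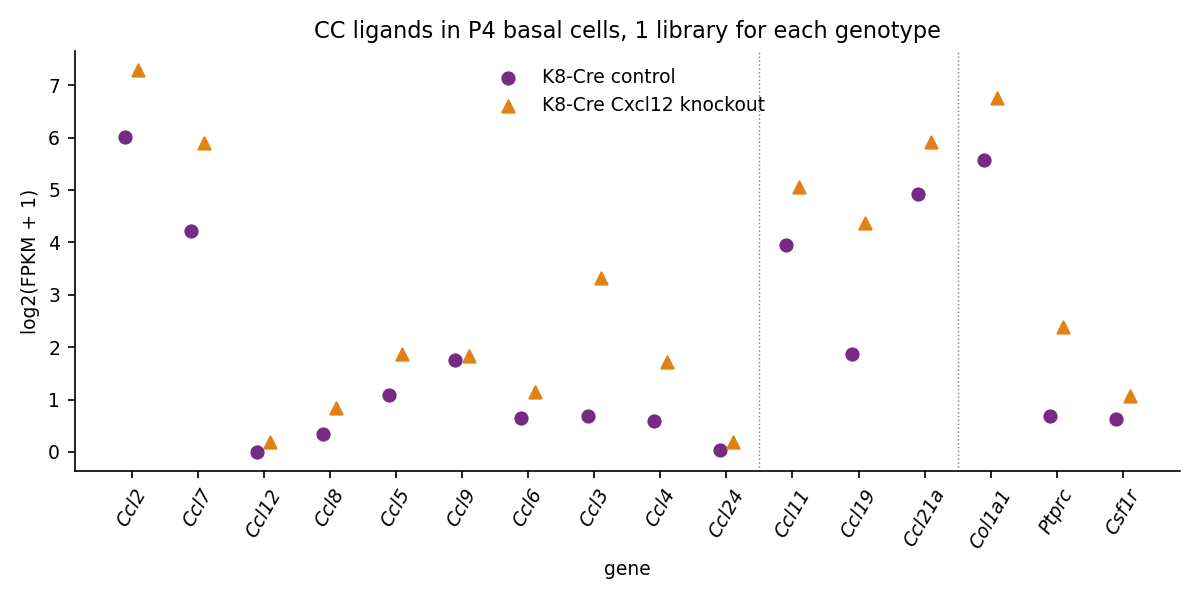
Levels on the log2(FPKM + 1) scale in the P4 libraries of control and Cxcl12 knockout for the 10 CC ligands, then other CC ligands (Ccl11, Ccl19, Ccl21a), then the markers Col1a1, Ptprc and Csf1r, parted by dotted lines. Ccl2 and Ccl7 are the highest of the 10 in both libraries, and every gene shown is higher in the knockout library.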

How the data were processed

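The members and gene lists were chosen with earlier results of these data known, and the comparison of Cre lines was added after seeing the data. Per the labels, ribosomal RNA was depleted before library preparation; the submitters' processing notes name STAR 2.7.8a, Partek and build hg38, but gene symbols and coordinates in the deposited files are those of mouse, and the counting step is not given in the sources used here. The deposited macrophage tables hold log2 values, log2(CPM + 0.0001), as read from the values, whose CPM sum to 1e+06. Depth is that total divided by the CPM of 1 read, taken from the most common low value under 1 CPM. Of values up to 50 reads, 74.3% to 89.9% by library were whole multiples of it to within 0.05. Depths, read counts and floors are thus estimates. The deposited P4 values are taken as FPKM from their Cufflinks layout. Of gene starts, 99.5% in the knockout and CXCR4 tables were those of GENCODE M21 (GRCm38), and 2.15% and 2.29% in the culture and P4 tables, so coordinates come from GENCODE alone.

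Changes were fitted with limma 3.58.1 (R 4.3.3) on log2(CPM + 1), which understates changes of low genes, keeping genes that reached 1 CPM in 2 or more libraries, with group means, a mean-variance trend and Benjamini-Hochberg adjustment over all genes (two-sided, threshold 0.05, intervals 95%). The knockout fit had 97.3 prior and 4 residual degrees of freedom, the CXCR4 fit an infinite prior and 1 residual. The fit was tested on simulated data. The Cre line contrast averaged control and knockout of each line. For cultured and P4 cells, log2 ratios of single libraries took a prior of 2 reads (0.0993 CPM) or 1 FPKM, and 2-fold ratios were counted among genes reaching 10 CPM or FPKM in either library. Named genes were all members and, of each other list, at most 3 that passed or had the largest ratios; others named were chosen as markers or neighbours. Intervals come from the spread between libraries in the fit, and floors of 3 reads cover counting error only. Alternatives were other pseudocounts, scalings, filters, no trend, a replicate block and each library left out. Some results are not reported here.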

Additional observations from a re-analysis of the deposited data

Results flagged for a closer look

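Ccl6 moved in opposite directions in the Cre lines, higher in the Cxcr4 knockout and lower in the Cxcl12 knockout within both repeats. The difference between the changes, tested in the limma fit, was 1.04 (SE 0.67, adjusted p = 0.9999) and did not pass. Ccl9 did the same, with a difference of 0.58 (SE 0.66, adjusted p = 0.9999), which did not pass either.

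The effect of CXCL12 in culture had opposite signs without and with the AKT inhibitor for 2 members, each from single libraries, and the difference was not tested. For Ccl3 the log2 ratio with the inhibitor minus that without it was -0.81. For Ccl6 it was 0.45, where the ratio without the inhibitor lay next to 0 (-0.0036) and was 0.022 with median-ratio scaling.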

How the results depend on the processing

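With limma, the CXCR4 sort gave 1219 genes and 7 of 10 members; both counts were 0 without the filter on low values and 0 without the mean-variance trend. The Cxcr4 knockout gave 1 gene, 8 without the filter and 0 without the trend. Leaving out each library gave 1 to 150: 150 and 17 without the second and the first LysM-Cre control, 19 without the second Cxcr4 knockout, and 4 and 3 without the first and the second Cxcl12 knockout. The Cxcl12 knockout gave 0, and 0 to 151 on leaving out each library: 151 without the second K8-Cre control and 7 without the second Cxcl12 knockout. The difference gave 1, 2 without the filter, 0 without the trend and 1 to 30 on leaving out each library: 30 and 4 without the second and the first LysM-Cre control, and 2 to 5 without the second Cxcr4 knockout, the second K8-Cre control or either Cxcl12 knockout. For LysM-Cre against K8-Cre, with all alternatives chosen after seeing the data, the count was 8, 4 with a pseudocount of 0.1 CPM, 13 without the filter, 1 with quantile normalization and 0 without the trend. Leaving out each library gave 1 to 95: 95 and 22 without the second and the first LysM-Cre control, 5 without the first Cxcr4 knockout and 1 without the first K8-Cre control, with 0 to 1 members. Libraries of the same number were not treated as paired: deviations correlated at 0.0573 to 0.139 between groups, not above 0.1 for every pair of groups, although the share of small noncoding RNA followed the number. With a replicate block the counts were 1, 1, 1 and 12, and no member passed. A minimum of 1 CPM or FPKM raised the 2-fold counts to 8296, 9495, 7646 and 8617 in culture and 3042 in P4.

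In the limma fits, signs turned only for members that had not passed: Ccl2 for the Cxcl12 knockout with median-ratio scaling (-0.17), Ccl4 there (0.021) and Ccl9 in the sort (-0.085) with quantile normalization, and Ccl8 for the difference with a pseudocount of 0.1 CPM (-0.56). Leaving out each library, log2 changes for the Cxcr4 knockout ran from -0.70 to 1.15 (Ccl3), -1.56 to 1.26 (Ccl5), -0.17 to 0.71 (Ccl7), -0.038 to 0.35 (Ccl9), -0.63 to 2.55 (Ccl12) and -1.99 to 0.14 (Ccl24). For the Cxcl12 knockout they ran from -0.58 to 0.65 (Ccl2), -0.55 to 0.52 (Ccl4), -1.35 to 0.44 (Ccl5), -1.22 to 3.86 (Ccl8) and -0.77 to 3.63 (Ccl24). For the difference they ran from -0.056 to 1.18 (Ccl2), -1.10 to 1.71 (Ccl5), -2.04 to 3.04 (Ccl8) and -2.81 to 0.37 (Ccl12). For the Cre lines they ran from -0.38 to 0.55 (Ccl3), -0.084 to 0.34 (Ccl9) and -1.31 to 0.29 (Ccl12), and for the sort, where values without a test remained, from -0.0026 to 0.23 (Ccl9). The cause was not tested. Levels under 0.0806 to 0.349 CPM, by library, could not be told from 0.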
